A study of Mus musculus with 9 samples.

Results

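The genes described here encode the potassium, calcium and sodium channels of excitable membranes and the subunits that assemble with them. Membership followed from the gene symbol: every array probe set that named 1 symbol beginning with Kcn, Cacn or Scn and a digit was taken. This gave 252 of the 45101 probe sets on the array and 119 of the 18194 genes named by a single symbol. By symbol, 84 of these genes belonged to potassium channels, 24 to calcium channels and 11 to sodium channels; 83 encoded pore-forming or pore-modifying subunits, 33 auxiliary subunits and 3 noncoding or opposite-strand transcripts. The name voltage-gated does not cover all of them. The inward rectifiers, the two-pore-domain leak channels and the calcium-activated Kcnn channels, 31 genes in all, lack a gate driven by membrane voltage.

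RNA was measured on 9 Affymetrix mouse arrays, 3 in each of 3 groups, all from Ainv15 embryonic stem cells that carry a doxycycline-inducible, V5-tagged Cdx2 construct. The first group was day 5 cultures given 1 µM retinoic acid and 0.5 µM of a hedgehog agonist from day 2, with a pulse of doxycycline (2 µg/ml, 6 to 8 hours, day 3) and bFGF at 100 ng/ml (Cdx2 and FGF cultures). The second was day 5 motor neuron cultures given the retinoic acid and agonist alone. The third was undifferentiated ES cells at day 0, kept on a layer of growth-arrested fibroblasts. The protocol also names 100 nM retinoic acid and 100 nM agonist after the doxycycline and does not say which cultures received them. Doxycycline, Cdx2 and FGF came together in 1 group, so their parts cannot be told apart, and all 3 groups descend from 1 engineered line. The labels do not say whether the 3 arrays of a group came from separate cultures, and the p-values therefore cover array-to-array spread that may be technical.

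Neurons fire by opening sodium and calcium channels, which depolarise the membrane, and by opening potassium channels, which repolarise it and set the resting potential. Each voltage-gated channel consists of a pore-forming subunit with voltage sensors and of smaller auxiliary subunits that set its trafficking, gating and surface density. In developing motor neurons, low-threshold and high-threshold calcium channels support spontaneous activity and, later, transmitter release, while A-type, ERG and small-conductance calcium-activated potassium channels shape firing.

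Values are the authors' log2 expression levels per probe set, and each gene is represented by its brightest probe set. A level of 4 was taken as the limit of low signal. A gene was tested where it exceeded 4 on at least 3 of the 9 arrays, and it was called higher or lower where the adjusted p was under 0.05 and the log2 difference at least 1 (limma, Benjamini-Hochberg over all 10912 genes tested). Differences are log2, the first-named group minus the second, with the standard error (SE) of the fit. If 1 or more arrays of the dimmer group read under 4, the fold is a lower bound ("at least"), computed after values under 4 were raised to 4. Levels of different genes are not set against each other, because probe sets differ in brightness.

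Most channel genes gave low signal in all 3 groups. Of the 119 genes, 27 were tested (22.7%), against 60.0% of all genes on the array, and 83 stayed at 4 or lower on all 9 arrays, where their highest value was 3.47. None of the 15 inward rectifiers and none of the 9 electrically silent Kv modifiers exceeded 4 on any array. Only 1 of 13 Kv1 to Kv4 pore genes (Kcnd3), 1 of 6 EAG, ERG and ELK genes (Kcnh2) and 1 of 3 KCNQ genes (Kcnq5) were tested, against 4 of 9 calcium pore genes, 3 of 8 sodium pore genes, 6 of 15 calcium auxiliary genes and 4 of 15 potassium auxiliary genes. At this signal, lower levels of the untested genes were not detectable, and absence is not shown.

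**Figure D1:**
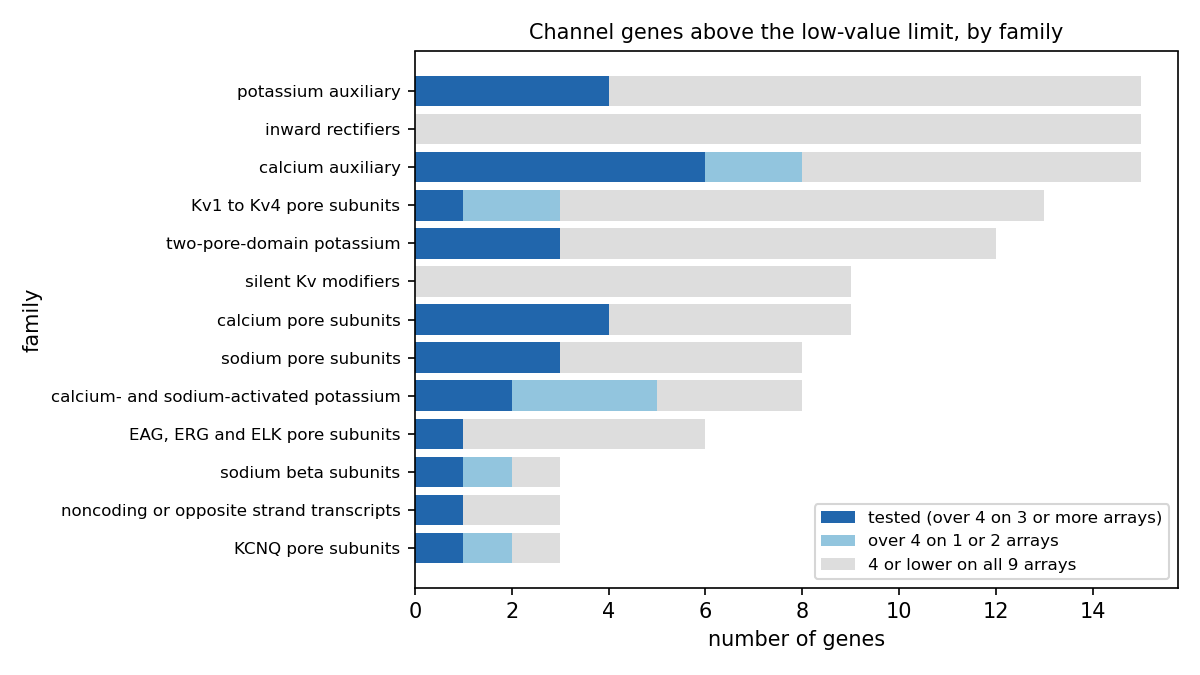
Number of channel genes per family, split into genes tested, genes over a log2 level of 4 on 1 or 2 arrays, and genes at 4 or lower on all 9 arrays. The 15 inward rectifiers and 9 silent Kv modifiers lie wholly in the last class, while calcium channel families hold 10 of the 27 tested genes.

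The number of channel genes with a group mean over 4 was 13 of 119 in Cdx2 and FGF cultures (10.9%), 20 in motor neuron cultures (16.8%) and 18 in ES cells (15.1%). Over all genes on the array the shares were 55.5%, 55.2% and 58.2% in the same order. Tested genes over 4 in 1 group alone were counted without a share over all genes tested, so the count is a description. A total of 11 tested channel genes exceeded 4 in 1 group alone and passed the filter through the arrays of that group alone. In motor neuron cultures these were Cacna1b, Cacnb1, Cacng4, Kcnd3 and Scn8a, in ES cells Cacng8, Kcnk6, Kcnn4, Kcnq5 and Scn1a, and in Cdx2 and FGF cultures Kcnip3.

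The context of these values over the whole array was as follows. The best Cdx2 probe set read 8.27, 8.99 and 8.59 on the Cdx2 and FGF arrays and 2.24 or lower on the other 6. A second Cdx2 probe set read 6.39, 7.11 and 6.60, then 2.63 on each motor neuron array, then 2.70, 2.63 and 4.56 in ES cells. All 12 neuron marker genes were tested; against ES cells 11 were higher in motor neuron cultures, and against motor neuron cultures 11 were lower in Cdx2 and FGF cultures. Against ES cells, Cdx2 and FGF cultures had 7 of the 12 higher and 1, Stmn2, lower, beside 25.4% and 27.2% of all genes tested. Stmn2 alone read 13.37, 13.09 and 12.75 in ES cells. The summed level of the 12 neuron markers was 13.34 to 13.54 in Cdx2 and FGF cultures, 16.41 to 16.83 in motor neuron cultures and 13.38 to 13.71 in ES cells (log2). Syt1 was under 4 in Cdx2 and FGF cultures, and Dcx, Syt1 and Nefm were under 4 in ES cells. Motor neuron marker genes summed to 9.81 to 10.12, 12.96 to 13.53 and 5.47 to 6.00 in that order. Of those 6 markers, the cholinergic genes Chat and Slc5a7 stayed under 4 on all 9 arrays. Slc18a3, also a cholinergic gene, read 11.29, 11.37 and 10.65 in motor neuron cultures and 2.17 on each ES array. In Cdx2 and FGF cultures Slc18a3 read 4.12, 4.01 and 3.67. The 6 fibroblast markers summed to 8.90 to 9.23, 4.90 to 4.92 and 10.26 to 13.04. In motor neuron cultures all 6 were under 4, and in Cdx2 and FGF cultures Col6a1, Thy1 and Postn were. Muscle genes summed to 14.41 to 14.48, 5.68 to 6.76 and 10.68 to 13.97, and epithelial genes to 10.66 to 11.11, 7.54 to 8.40 and 14.13 to 14.82. Of the muscle genes, Myog and Tnnt2 were under 4 on all 9 arrays, and Myh3 and Ttn were under 4 in Cdx2 and FGF cultures. Pluripotency genes summed to 4.75, 4.75 and 15.76 to 16.03, neural progenitor genes to 12.37 to 12.49, 14.16 to 14.35 and 9.43 to 10.44, and mesoderm genes to 10.75 to 11.06, 3.75 and 3.75. The mesoderm signal was that of Meox1 alone, with Tbx6 and Msgn1 under 4 on all 9 arrays. The 4 vascular genes were each under 4 in both day 5 cultures and summed to 9.42 to 9.88 in ES cells. Of these, Cdh5 and Kdr were under 4 on all 9 arrays, so the ES signal was that of Pecam1 and Tek. Glial genes summed to 8.28 to 8.53, 8.87 to 9.17 and 5.21 to 7.27, with Gfap, Aqp4, S100b and Sox10 under 4 on all arrays. The 3' minus 5' signal of the Actb control probe sets, a measure of RNA length after amplification, averaged -0.04 in Cdx2 and FGF cultures, -0.04 in motor neuron cultures and 2.07 in ES cells (exact two-sided permutation p = 0.1 for motor neuron cultures against ES cells, the smallest that 3 against 3 arrays allow). That of Gapdh averaged 0.52, 0.62 and 0.80 in the same order, with overlap between motor neuron cultures and ES cells (exact p = 0.2). The 18S control read 15.32 to 15.42 in Cdx2 and FGF cultures, 15.45 to 15.51 in motor neuron cultures and 5.86 to 6.60 in ES cells. The 18S and Actb controls set all ES arrays apart from all day 5 arrays. Any difference in sample handling cannot be told apart from the group in comparisons with ES cells. The part of cell composition, RNA length and handling in any channel result was not tested. In bulk RNA, fewer cells of a type and less RNA per cell cannot be told apart.

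Motor neuron cultures against ES cells gave 12 channel genes higher and 10 lower among the 27 tested. Of all genes tested, 25.9% were called higher, 30.7% lower and 56.6% either way, so the 12 and 10 members are 44.4% and 37% beside those shares. Among the 12, Cacna1b, Cacnb1, Cacng4 and Kcnd3 passed the filter through the motor neuron arrays alone. Among the 10, Cacng8, Kcnk6, Kcnn4, Kcnq5 and Scn1a passed it through the ES arrays alone. The direction of those differences followed from the filter, so the shares are a description. The median difference of the tested channel genes was 0.32, against -0.076 over all genes tested. This median is the value of Cacna2d1, whose other tested probe sets, given below, gave larger differences. An unadjusted p under 0.05 was found for 24 of the 27 (88.9%), beside 75.3% of all genes tested. Calcium channel genes contributed 7 higher and 2 lower of 10 tested, potassium genes 5 higher and 6 lower of 13, and sodium genes 0 higher and 2 lower of 4. Auxiliary subunits gave 6 higher and 2 lower of 11. The median was 0.94 after another quantile normalization and 3.84 with a filter at 6, which left 17 genes.

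Cdx2 and FGF cultures against motor neuron cultures gave 3 channel genes higher and 12 lower. The 3 were Kcnip3, Kcnk1 and the noncoding Kcnq1ot1. The calls of Kcnk1 and Kcnq1ot1 were lost under 1 or more alternatives. So were those of Cacna2d2, Cacng7, Kcnh2, Kcnmb4 and Scn8a among the 12. Among all genes tested, 11.2% were called higher, 8.61% lower and 19.8% either way, beside 11.1% and 44.4% of the channel genes. Of the 12 lower, Cacna1b, Cacnb1, Cacng4, Kcnd3 and Scn8a passed the filter through the motor neuron arrays alone. Kcnip3, among the 3 higher, passed it through the Cdx2 and FGF arrays alone. The direction of those differences followed from the filter, so the shares are a description. The 12 were 6 calcium genes, 4 potassium genes and 2 sodium genes. The median difference was -0.39, against 0.041 over all genes tested, and it was -0.058 after values under 4 were raised to 4. The -0.39 is the value of Scn2b, which lay near the limit of low signal in both cultures. An unadjusted p under 0.05 was found for 15 of the 27 (55.6%), beside 41.5% of all genes tested. The 2 comparisons share the motor neuron arrays, so the values of the 3 groups are given side by side below.

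Cdx2 and FGF cultures against ES cells gave 9 channel genes higher and 11 lower, beside 25.4% higher, 27.2% lower and 52.6% either way over all genes tested. Here Kcnip3 passed the filter through the Cdx2 and FGF arrays alone. Cacng8, Kcnk6, Kcnn4, Kcnq5 and Scn1a passed it through the ES arrays alone. Their directions followed from the filter. The median difference was -0.11 over the channel genes and -0.0037 over all genes tested. The -0.11 is the value of Cacna1b, which was under 4 on all arrays of both groups.

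**Figure D2:**
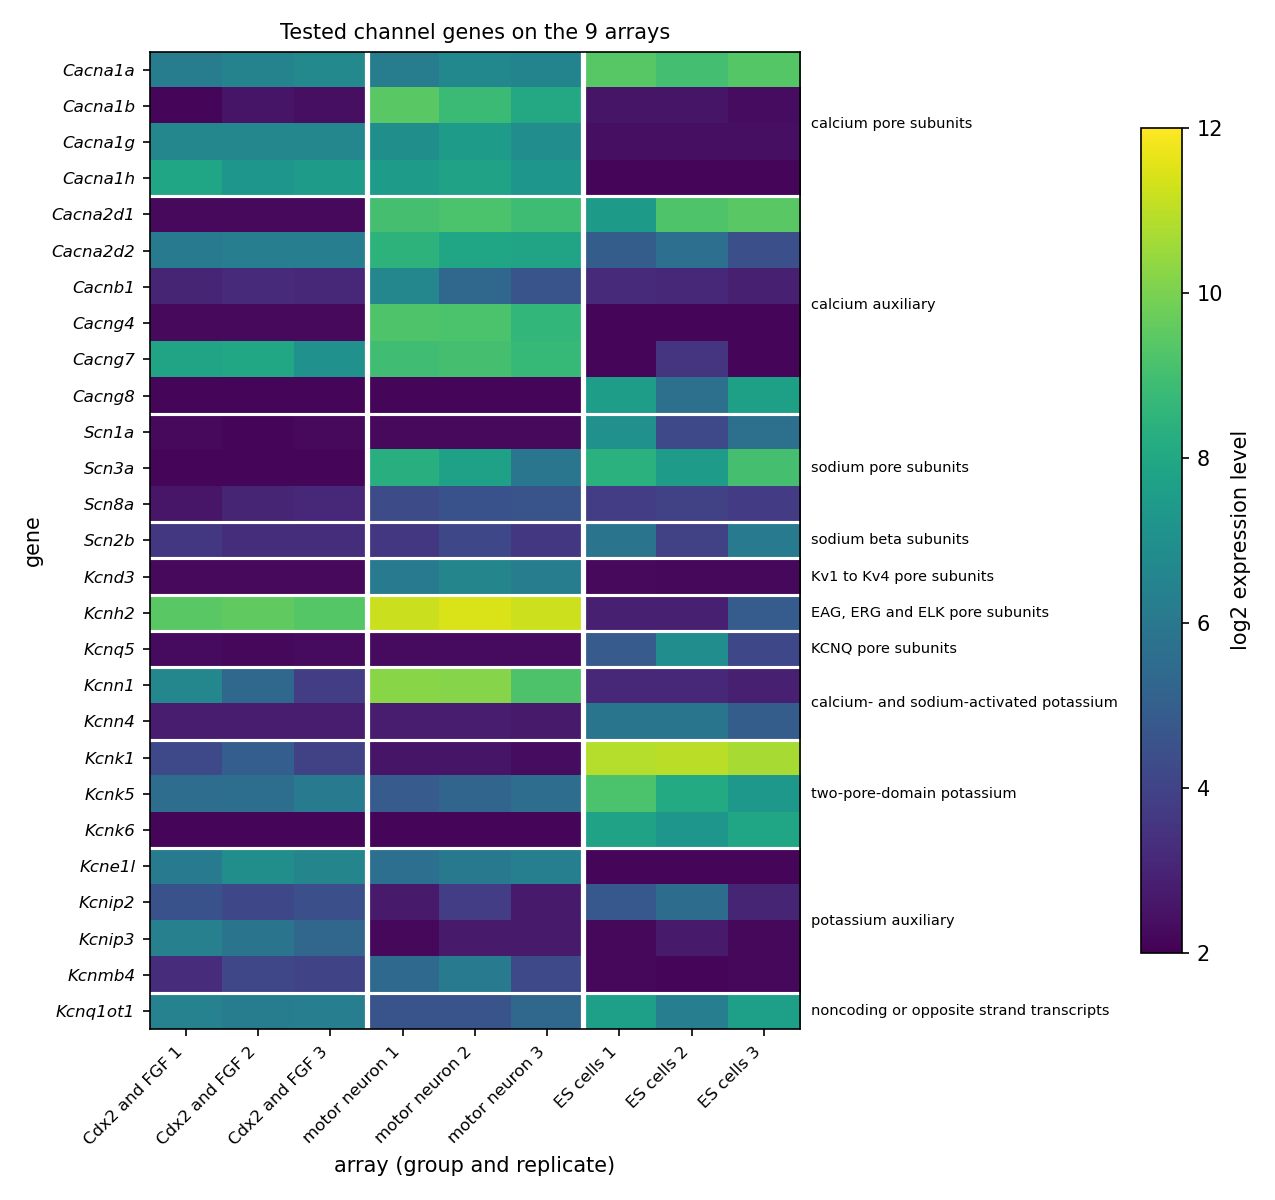
Log2 level of the 27 tested channel genes (rows) on each of the 9 arrays (columns: Cdx2 and FGF cultures, motor neuron cultures, ES cells). Genes such as Cacna1b and Cacng4 are over 8 on the motor neuron arrays alone, and Kcnk6 and Cacng8 are over 5 on the ES arrays alone.

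**Figure D3:**
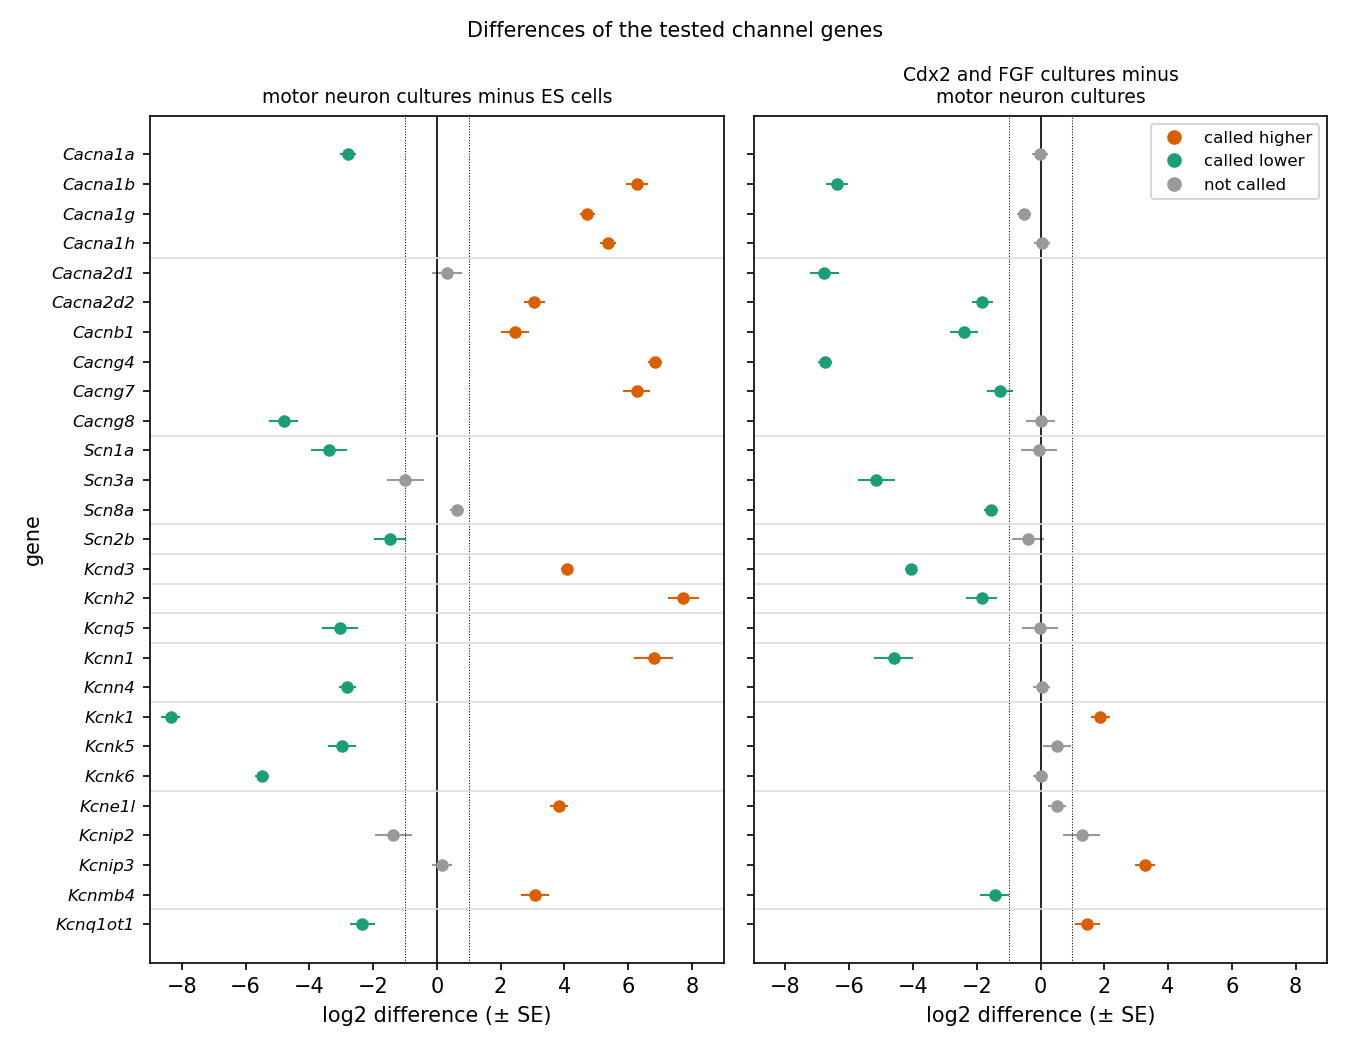
Log2 difference with its SE for each of the 27 tested channel genes, motor neuron cultures minus ES cells on one panel and Cdx2 and FGF cultures minus motor neuron cultures on the other. Positive values mean higher in the first-named group; 12 genes are called higher and 10 lower on the first panel, and 3 higher and 12 lower on the second.

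The 4 tested calcium pore genes split into 3 patterns. Cacna1b, the pore of the N-type channel that triggers transmitter release, read 2.17, 2.58 and 2.39 in Cdx2 and FGF cultures, 9.45, 8.82 and 8.03 in motor neuron cultures, with 2.58, 2.58 and 2.32 in ES cells. Signal was found on the motor neuron arrays alone. The level was at least 27.2-fold higher in motor neuron cultures than in ES cells (difference 6.27, SE 0.34, adjusted p = 1.92e-07) and at least 27.2-fold lower in Cdx2 and FGF cultures than in motor neuron cultures (difference -6.39, SE 0.34, adjusted p = 1.17e-06). Cdx2 and FGF cultures minus ES cells gave -0.11 (adjusted p = 0.784), with all 6 arrays under 4.

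Both T-type pore genes, whose channels open near the resting potential, followed another course. Cacna1g read 6.61, 6.64 and 6.63 in Cdx2 and FGF cultures, 7.00, 7.51 and 6.92 in motor neuron cultures and 2.43 on each ES array. Cacna1h read 7.88, 7.27 and 7.54, then 7.53, 7.78 and 7.27, then 2.17 on each ES array. Both kinds of day 5 culture were high and ES cells were at the bottom of the scale. Cacna1g was at least 8.84-fold and Cacna1h at least 11.5-fold higher in motor neuron cultures than in ES cells (adjusted p = 9.25e-08 and 6.59e-08). Between Cdx2 and FGF cultures and motor neuron cultures, Cacna1g differed by -0.52 (SE 0.23, adjusted p = 0.121) and Cacna1h by 0.04 (adjusted p = 0.957), and neither passed the test.

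Cacna1a, the P/Q-type pore, was the 1 calcium pore gene lower after differentiation. It read 6.19, 6.48 and 6.70 in Cdx2 and FGF cultures, 6.26, 6.65 and 6.51 in motor neuron cultures, with 9.40, 9.01 and 9.38 in ES cells, with no overlap between ES cells and either culture. It was 6.91-fold lower in motor neuron cultures than in ES cells (difference -2.79, SE 0.24, adjusted p = 4.16e-06). The difference between the day 5 cultures was -0.02 (adjusted p = 0.998). The 5 other pore genes, among them the L-type genes Cacna1c and Cacna1d, had no array over 4; the highest value, of Cacna1c, was 2.49.

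Calcium auxiliary genes had the most tested members of any family. Of these 6, 5 were called lower in Cdx2 and FGF cultures than in motor neuron cultures, beside 8.61% of all genes tested. Among the 5, Cacnb1 and Cacng4 passed the filter through the motor neuron arrays alone. The calls of Cacng7 and Cacna2d2 were lost under some alternatives, given below. Cacng4, Cacng7 and Cacng8 belong to the TARP group of gamma subunits, which are best known as partners of AMPA-type glutamate receptors. Cacng4 read 2.24 on each Cdx2 and FGF array, 9.24, 9.15 and 8.61 in motor neuron cultures and 2.17 on each ES array. It was at least 32.0-fold higher in motor neuron cultures than in ES cells (difference 6.84, SE 0.23, adjusted p = 9.52e-09) and at least 32.0-fold lower in Cdx2 and FGF cultures than in motor neuron cultures (difference -6.76, SE 0.23, adjusted p = 7.98e-08).

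Cacng7 read 7.82, 7.99 and 7.04 in Cdx2 and FGF cultures, 8.92, 9.06 and 8.71 in motor neuron cultures, with 2.17, 3.56 and 2.17 in ES cells. Unlike Cacng4, Cacng7 stayed well over ES cells in both cultures by this probe set. It was higher by at least 12.3-fold in Cdx2 and FGF cultures and at least 29.8-fold in motor neuron cultures (adjusted p = 4.20e-06 and 7.21e-07). Its second tested probe set was called higher than in ES cells in motor neuron cultures but not in Cdx2 and FGF cultures. It was 2.43-fold lower in Cdx2 and FGF cultures than in motor neuron cultures (difference -1.28, SE 0.42, adjusted p = 0.0422). This last call was lost under 7 of 22 alternatives, 6 of which each left out 1 of the motor neuron or the Cdx2 and FGF arrays (adjusted p = 0.112, 0.121 and 0.0758 without motor neuron replicates 1, 2 and 3, and 0.0818, 0.0609 and 0.155 without Cdx2 and FGF replicates 1, 2 and 3). The call was kept with the 6 day 5 arrays compared alone. For Cacng7 the standard deviation was 0.80 over ES arrays, against 0.18 for motor neuron arrays and 0.51 with Cdx2 and FGF. Cacng8 read 2.17 on all 6 day 5 arrays and 7.56, 5.67 and 7.67 in ES cells. Cacng8 was at least 7.82-fold lower in motor neuron cultures than in ES cells (adjusted p = 8.98e-06), or at least 12.2-fold without ES replicate 2. Its standard deviation was 1.12 over ES arrays and 0 in both day 5 cultures, and the fit pooled these.

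The alpha2delta subunits raise the surface density of calcium channels. Cacna2d2 read 6.12, 6.29 and 6.29 in Cdx2 and FGF cultures, 8.45, 7.90 and 7.85 in motor neuron cultures, with 4.95, 5.65 and 4.44 in ES cells, so the 3 groups did not overlap. It was 8.29-fold higher in motor neuron cultures than in ES cells (adjusted p = 2.02e-05) and 3.55-fold lower in Cdx2 and FGF cultures than in motor neuron cultures (adjusted p = 0.0024), with a value 2.33-fold over ES cells in Cdx2 and FGF cultures (adjusted p = 0.00787). With the mean of its probe sets, the difference between the day 5 cultures was -0.64 and no longer called. Cdx2 and FGF cultures minus ES cells gave 0.58 with that mean, 0.99 after another quantile normalization and 0.94 without ES replicate 3, all under the size required. Cacnb1, a cytoplasmic beta subunit, read 3.05, 3.20 and 3.14, then 6.64, 5.36 and 4.62, then 3.20, 3.14 and 2.89 in the same order of groups. It was over 4 on the motor neuron arrays alone, by at least 2.90-fold over ES cells (adjusted p = 0.000583), and was at least 2.90-fold lower in Cdx2 and FGF cultures (adjusted p = 0.00241).

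Cacna2d1, the other alpha2delta gene, gave different answers from different probe sets. Its brightest probe set read 2.26, 2.24 and 2.26 in Cdx2 and FGF cultures, 9.03, 9.18 and 8.90 in motor neuron cultures, with 7.46, 9.24 and 9.44 in ES cells. By this probe set, motor neuron cultures and ES cells overlapped (difference 0.32, SE 0.46, adjusted p = 0.543), while Cdx2 and FGF cultures were at least 32.8-fold lower than motor neuron cultures (difference -6.78, adjusted p = 5.18e-06). Another probe set read 2.18, 2.20 and 2.18, then 8.36, 8.14 and 8.00, then 2.20 on each ES array. The remaining tested one read 3.00, 3.00 and 3.22, then 9.80, 9.74 and 9.50, then 4.28, 4.13 and 3.08. By these 2 probe sets the gene was higher in motor neuron cultures than in ES cells, by 5.97 and 5.85 (adjusted p = 8.66e-09 and 2.61e-07, adjusted over each probe set by itself). All 3 tested probe sets were lower in Cdx2 and FGF cultures than in motor neuron cultures. Which transcripts each probe set detects was not tested.

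**Figure D4:**
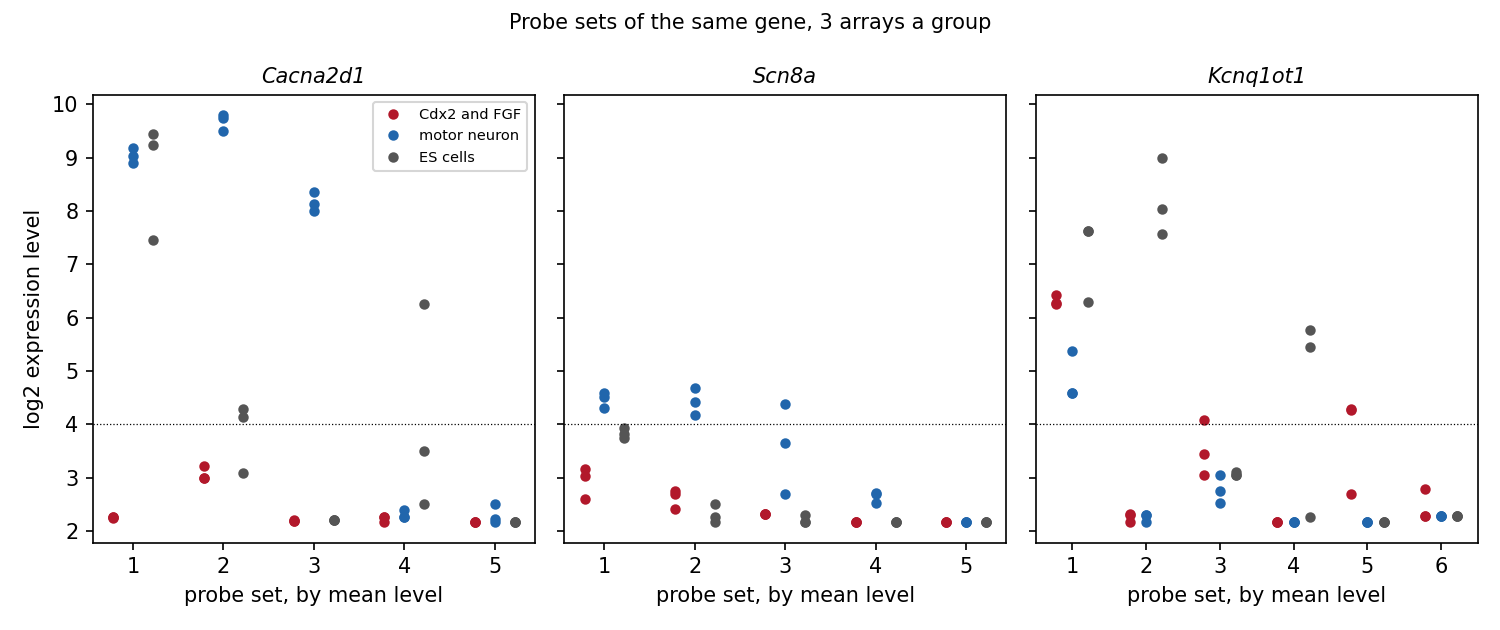
Log2 level of each probe set of Cacna2d1, Scn8a and Kcnq1ot1 on each array of Cdx2 and FGF cultures, motor neuron cultures and ES cells. By group mean, the 3 tested probe sets of Cacna2d1 are all under 4 in Cdx2 and FGF cultures and all over 8 in motor neuron cultures. In ES cells the mean of 1 is over 8 and the means of 2 are under 4, with single ES arrays on either side of these limits.

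By the brightest probe set of each, no sodium channel gene was called higher in either day 5 culture than in ES cells. Another probe set of Scn8a, given below, was higher in motor neuron cultures. Scn3a, the pore gene that predominates in the embryonic brain, read 2.17 on each Cdx2 and FGF array, 8.27, 7.72 and 5.94 in motor neuron cultures, with 8.40, 7.47 and 9.04 in ES cells. Motor neuron cultures and ES cells overlapped (difference -0.99, SE 0.58, adjusted p = 0.152). Cdx2 and FGF cultures were at least 9.93-fold lower than motor neuron cultures (difference -5.15, SE 0.58, adjusted p = 0.000148), or at least 16.0-fold without motor neuron replicate 3, and at least 19.7-fold lower than ES cells (adjusted p = 1.04e-05). Scn3a thus kept signal in 2 of the 3 groups.

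Scn8a, the pore gene of mature nodes and initial segments, lay near the limit of low signal. It read 2.60, 3.03 and 3.16 in Cdx2 and FGF cultures, 4.30, 4.51 and 4.59 in motor neuron cultures, with 3.82, 3.93 and 3.74 in ES cells. It was lower in Cdx2 and FGF cultures than in motor neuron cultures (difference -1.54, SE 0.22, adjusted p = 0.000612), but the difference was -0.47 with values under 4 raised to 4. Against ES cells the difference of 0.64 in motor neuron cultures was under the size required (adjusted p = 0.0243). Its second tested probe set was higher in motor neuron cultures than in ES cells by 2.12 (adjusted p = 1.21e-05).

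Scn1a, a pore gene of postnatal neurons, and Scn2b, a beta subunit, were lower in motor neuron cultures than in ES cells. Scn1a read 2.24, 2.17 and 2.24 in Cdx2 and FGF cultures, 2.25 on each motor neuron array and 7.04, 4.19 and 5.69 in ES cells. Scn1a was at least 3.12-fold lower in motor neuron cultures (adjusted p = 0.000423), with at least 1.92-fold without ES replicate 1 and at least 5.15-fold without ES replicate 2. Scn2b read 3.61, 3.32 and 3.32, then 3.63, 4.17 and 3.61, then 5.84, 3.93 and 6.06. Here the motor neuron and ES values overlapped, and the call (difference -1.47, SE 0.50, adjusted p = 0.0231, at least 2.37-fold, or 3.71-fold without ES replicate 2) was lost under 6 of 20 alternatives, among them without ES replicate 1 (adjusted p = 0.0796), without ES replicate 3 (0.0776), without motor neuron replicate 1 (0.069) and without motor neuron replicate 3 (0.0674).

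Potassium pore genes that were higher in motor neuron cultures came from 3 families. Kcnd3 forms A-type channels that open at subthreshold voltages and inactivate fast. It read 2.24, 2.24 and 2.25 in Cdx2 and FGF cultures, 6.12, 6.57 and 6.23 in motor neuron cultures, with 2.25, 2.20 and 2.20 in ES cells. Kcnd3 was at least 4.94-fold higher in motor neuron cultures than in ES cells (difference 4.09, SE 0.20, adjusted p = 8.36e-08) and at least 4.94-fold lower in Cdx2 and FGF cultures than in motor neuron cultures (difference -4.06, adjusted p = 5.89e-07). Its 2 other tested probe sets were over 4 on all 3 motor neuron arrays and on no other.

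Kcnh2, the ERG pore gene of the rapid delayed rectifier, read 9.43, 9.56 and 9.35 in Cdx2 and FGF cultures, 11.20, 11.44 and 11.24 in motor neuron cultures, with 2.89, 2.89 and 4.91 in ES cells. The 3 groups did not overlap. Kcnh2 was at least 127-fold higher in motor neuron cultures than in ES cells (difference 7.73, SE 0.48, adjusted p = 4.51e-07) and at least 35.4-fold higher in Cdx2 and FGF cultures than in ES cells (adjusted p = 3.61e-06). Between the day 5 cultures it was 3.6-fold lower with Cdx2 and FGF (difference -1.85, SE 0.48, adjusted p = 0.016). That call was lost with no filter (adjusted p = 0.0596) and without motor neuron replicate 1, motor neuron replicate 2, Cdx2 and FGF replicate 1 or Cdx2 and FGF replicate 3 (0.0508, 0.0575, 0.0536 and 0.0559, with differences of -1.89, -1.77, -1.84 and -1.80). These were 5 of 22 alternatives, and the call was kept with the 6 day 5 arrays compared alone. The SE of 0.48 pools the spread of all 3 groups. For Kcnh2 the standard deviation was 1.16 over ES arrays, against 0.13 for motor neuron arrays and 0.11 with Cdx2 and FGF.

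Kcnn1 encodes a small-conductance channel that opens on calcium entry and slows repetitive firing. It read 6.61, 5.34 and 3.81 in Cdx2 and FGF cultures, 10.23, 10.18 and 9.19 in motor neuron cultures, with 3.15, 3.17 and 2.87 in ES cells. Kcnn1 was at least 58.4-fold higher in motor neuron cultures than in ES cells (difference 6.80, SE 0.61, adjusted p = 5.75e-06). The Cdx2 and FGF arrays were spread widely and lay under all motor neuron arrays, at least 23.4-fold lower (difference -4.61, SE 0.61, adjusted p = 0.000399), or at least 36.7-fold without Cdx2 and FGF replicate 1 and 14.8-fold without Cdx2 and FGF replicate 3. Against ES cells the Cdx2 and FGF cultures were at least 2.49-fold higher (adjusted p = 0.00957), or at least 1.59-fold without Cdx2 and FGF replicate 1 and 3.94-fold without Cdx2 and FGF replicate 3; with values under 4 raised to 4 the adjusted p was 0.0652. A second probe set of Kcnn1 stayed at 2.60 on each Cdx2 and FGF array and read 5.80, 5.47 and 5.44 in motor neuron cultures.

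The potassium genes lower in motor neuron cultures than in ES cells were mostly leak and calcium-activated channels. All 3 tested two-pore-domain genes, whose channels set the resting potential, were lower. Kcnk1 read 4.21, 4.97 and 3.97 in Cdx2 and FGF cultures, 2.59, 2.59 and 2.34 in motor neuron cultures, with 10.88, 10.97 and 10.70 in ES cells. Kcnk1 was at least 115-fold lower in motor neuron cultures than in ES cells (difference -8.35, SE 0.29, adjusted p = 1.21e-08). It was higher in Cdx2 and FGF cultures than in motor neuron cultures by 1.88 (adjusted p = 0.000986), but by 0.39 with values under 4 raised to 4 (adjusted p = 0.311), and its second probe set differed by 0.12 (adjusted p = 0.921).

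Kcnk6 read 2.17 on all 6 day 5 arrays and 7.77, 7.24 and 7.92 in ES cells, at least 12.5-fold lower in motor neuron cultures (adjusted p = 3.12e-08). Kcnk5 kept signal in all groups: 5.58, 5.61 and 6.07 in Cdx2 and FGF cultures, 4.89, 5.26 and 5.56 in motor neuron cultures, with 9.18, 8.10 and 7.35 in ES cells. It was 7.84-fold lower in motor neuron cultures than in ES cells (adjusted p = 0.00017) and differed by 0.52 between the day 5 cultures (adjusted p = 0.426). Kcnn4, the intermediate-conductance calcium-activated channel known from non-excitable cells, read 2.81, 2.81 and 2.78, then 2.81, 2.78 and 2.70, then 5.89, 5.87 and 4.96. Kcnn4 was at least 2.98-fold lower in motor neuron cultures than in ES cells (adjusted p = 8.68e-06).

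Kcnq5, a KCNQ pore gene of the M-current, read 2.27, 2.22 and 2.27 in Cdx2 and FGF cultures, 2.27 on each motor neuron array and 4.86, 6.92 and 4.16 in ES cells. Kcnq5 was at least 2.48-fold lower in motor neuron cultures than in ES cells (difference -3.04, SE 0.57, adjusted p = 0.000893), or at least 1.42-fold without ES replicate 2, and with values under 4 raised to 4 the adjusted p was 0.0615. Cacng8, Kcnk6, Kcnn4, Kcnq5 and Scn1a had signal on ES arrays alone. There the pluripotency markers and, of the vascular markers, Pecam1 and Tek had their signal. On the same arrays epithelial and fibroblast markers were highest in sum and the Actb signal was skewed to the 3' end. The part of these markers and of that skew in these results was not tested.

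Among potassium auxiliary genes, Kcnip3 was the 1 tested channel gene with signal in Cdx2 and FGF cultures alone. It encodes a calcium-binding protein, also called calsenilin or DREAM, that binds A-type channels. It read 6.36, 5.86 and 5.29 in Cdx2 and FGF cultures, 2.22, 2.73 and 2.73 in motor neuron cultures, with 2.22, 2.73 and 2.22 in ES cells. Kcnip3 was at least 3.58-fold higher in Cdx2 and FGF cultures than in motor neuron cultures (difference 3.28, SE 0.31, adjusted p = 4.51e-05) and than in ES cells (difference 3.45, adjusted p = 6.97e-06). The related Kcnip2 read 4.51, 4.15 and 4.43, then 2.70, 3.81 and 2.70, then 4.75, 5.54 and 3.03. It passed neither test (motor neuron cultures minus ES cells -1.37, SE 0.58, adjusted p = 0.0554; Cdx2 and FGF cultures minus motor neuron cultures 1.29, adjusted p = 0.123). Without ES replicate 3 both were called (-2.07 and 1.29, adjusted p = 0.00136 and 0.0191), and without motor neuron replicate 2 the first was (-1.74, adjusted p = 0.0366).

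Kcne1l, a single-span subunit of the MinK family, read 6.09, 6.94 and 6.54 in Cdx2 and FGF cultures, 5.66, 6.06 and 6.31 in motor neuron cultures, with 2.19, 2.17 and 2.17 in ES cells. Kcne1l was at least 4.03-fold higher in motor neuron cultures than in ES cells (adjusted p = 1.3e-06), and the 0.51 between the day 5 cultures did not pass (adjusted p = 0.203). Kcnmb4, the neuronal beta subunit of large-conductance calcium-activated channels, read 3.27, 4.14 and 4.07, then 5.40, 6.18 and 4.22, then 2.20, 2.17 and 2.20. Kcnmb4 was at least 2.41-fold higher in motor neuron cultures than in ES cells (adjusted p = 0.000173). In Cdx2 and FGF cultures it was at least 2.29-fold lower than in motor neuron cultures (difference -1.44, SE 0.45, adjusted p = 0.0364), a call lost under 7 of 21 alternatives: with no filter (adjusted p = 0.105), with the 6 arrays compared alone (0.075), and without motor neuron replicate 1 (0.111), motor neuron replicate 2 (0.116), or Cdx2 and FGF replicate 1, 2 or 3 (0.136, 0.0623 and 0.0684). Its pore partner Kcnma1 was not tested, with 7.69, 2.24 and 5.52 in ES cells and 2.24 on every day 5 array.

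Kcnq1ot1, a noncoding RNA read from the strand opposite Kcnq1 and known as the imprinted silencer of its domain, codes for no channel. It read 6.42, 6.25 and 6.27 in Cdx2 and FGF cultures, 4.58, 4.58 and 5.38 in motor neuron cultures, with 7.63, 6.29 and 7.63 in ES cells. It was 5.04-fold lower in motor neuron cultures than in ES cells (difference -2.33, SE 0.40, adjusted p = 0.000457) and 2.76-fold higher in Cdx2 and FGF cultures than in motor neuron cultures (difference 1.46, SE 0.40, adjusted p = 0.0193). The second tested probe set had signal in ES cells alone (8.99, 7.58 and 8.05) and differed by 0.00 between the day 5 cultures. The call between the day 5 cultures was lost under 7 of 21 alternatives: after another quantile normalization (adjusted p = 0.055), with no filter (0.0633), and without motor neuron replicate 1 (0.0762), motor neuron replicate 2 (0.0729), or Cdx2 and FGF replicate 1, 2 or 3 (0.0671, 0.056 and 0.0565).

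Side by side, 9 of the 27 tested genes were higher in motor neuron cultures than in ES cells and lower in Cdx2 and FGF cultures than in motor neuron cultures: Cacna1b, Cacna2d2, Cacnb1, Cacng4, Cacng7, Kcnd3, Kcnh2, Kcnmb4 and Kcnn1. Over all genes tested, 6.13% had this pair of calls. As both comparisons use the motor neuron arrays, the count is a description and was not tested. Cacna1b, Cacnb1, Cacng4 and Kcnd3 passed the filter through those arrays alone, from which both directions followed. Among the 9 genes, Cacna2d2, Cacng7, Kcnh2, Kcnmb4 and Kcnn1 were also higher in Cdx2 and FGF cultures than in ES cells. With values under 4 raised to 4, however, Kcnmb4 differed there by 0.07. The second tested probe sets of Cacng7 and Kcnn1 were not called higher against ES cells. With array weights, Kcnn1 and Kcnmb4 were not called against ES cells (adjusted p = 0.172 and 0.128). Cacna1b, Cacnb1, Cacng4 and Kcnd3 were not called there and stayed under 4 on all Cdx2 and FGF arrays. Cacna1g, Cacna1h and Kcne1l were higher in motor neuron cultures than in ES cells and were not called between the day 5 cultures. Cacna1a, Cacng8, Kcnk5, Kcnk6, Kcnn4, Kcnq5, Scn1a and Scn2b were lower in motor neuron cultures than in ES cells and not called between the day 5 cultures. The neuron markers were lower in the same comparison of the day 5 cultures in 11 of 12 members, and their part in these results was not tested.

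Tests of each probe set by itself gave 38 channel probe sets. In motor neuron cultures against ES cells, 21 were higher and 12 lower, beside 31.9% and 28% of all probe sets tested. In Cdx2 and FGF cultures against motor neuron cultures, 3 were higher and 21 lower, beside 10.9% and 8.55%. In Cdx2 and FGF cultures against ES cells, 9 were higher and 13 lower, beside 31.4% and 24.7%. Where a gene called lower in Cdx2 and FGF cultures than in motor neuron cultures had further tested probe sets, which was so for 7 genes, all 9 of those probe sets were called lower as well. The 2 genes called higher there with a further tested probe set, Kcnk1 and Kcnq1ot1, had none called higher. Of the genes called higher in Cdx2 and FGF cultures than in ES cells, Cacng7 and Kcnn1 had a further tested probe set, with none called higher.

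Among the 92 genes not tested, 9 exceeded 4 on 1 or 2 arrays. For 7 of them (Cacnb4, Cacng6, Kcnd1, Kcnma1, Kcnn2, Kcnq3 and Kcnt2) these were ES arrays. Cacng6 read 8.41, 6.78 and 2.26 in ES cells and 2.17 on every day 5 array, and Kcnt2, a sodium-activated potassium channel, read 4.52, 7.41 and 3.97 in ES cells with at most 3.35 elsewhere. Such values on some arrays of a group alone were not tested. For the other 2, the arrays were of motor neuron cultures. Kcna5 read 2.17 on each Cdx2 and FGF array, 5.41, 4.47 and 2.76 in motor neuron cultures and 2.17 on each ES array. Scn3b, a sodium channel beta subunit, read 2.23, 2.17 and 2.17, then 3.87, 4.57 and 3.88, then 2.23 on each ES array.

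Genes linked to channel placement and excitability were examined from 4 lists, whose counts are read beside the shares of all genes tested: 25.9% higher and 30.7% lower in motor neuron cultures than in ES cells, and, for Cdx2 and FGF cultures against motor neuron cultures, 11.2% higher and 8.61% lower. Of 20 anchoring and partner genes, 12 were tested, with 4 higher and 3 lower in motor neuron cultures than in ES cells. Set against motor neuron cultures, Cdx2 and FGF cultures had 0 higher and 3 lower. Cntn2, an axonal adhesion protein that clusters potassium channels beside nodes, differed by 7.85 between motor neuron cultures and ES cells (adjusted p = 2.29e-08) and was 39.0-fold lower with Cdx2 and FGF (difference -5.28, adjusted p = 1.76e-06). Nfasc, an anchor of initial segments, was 13.8-fold higher in motor neuron cultures than in ES cells and 2.99-fold lower in Cdx2 and FGF cultures than in motor neuron cultures (adjusted p = 4.4e-06 and 0.00537). Nrcam was at least 106-fold higher in motor neuron cultures than in ES cells (adjusted p = 4.15e-07) and differed by -0.10 between the day 5 cultures (adjusted p = 0.93). Cntnap2 read 2.22 on each Cdx2 and FGF array, 2.36, 2.25 and 3.76 in motor neuron cultures, with 10.24, 9.16 and 8.98 in ES cells, at least 44.0-fold lower in motor neuron cultures (adjusted p = 8.47e-07).

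Of the 7 other cation channel genes of excitability, 5 had a probe set and 1, Nalcn, was tested. This sodium leak channel read 2.17, 2.41 and 2.40 in Cdx2 and FGF cultures, 4.89, 4.27 and 4.16 in motor neuron cultures, with 2.52, 2.47 and 2.41 in ES cells, over 4 in motor neuron cultures alone. It was at least 1.36-fold higher there than in ES cells (difference 1.98, adjusted p = 3.71e-05) and at least 1.36-fold lower in Cdx2 and FGF cultures than in motor neuron cultures (difference -2.11, adjusted p = 0.000118). With values under 4 raised to 4 these differences were 0.44 and -0.44, under the size required. Of 5 tested pump and cotransporter genes, motor neuron cultures had 2 higher and 3 lower than ES cells. Slc12a5, the chloride extruder of maturing neurons, read 3.46, 3.26 and 3.88 in Cdx2 and FGF cultures, 9.80, 9.09 and 8.98 in motor neuron cultures, with 3.58, 4.01 and 3.46 in ES cells. Slc12a5 was at least 39.1-fold higher in motor neuron cultures than in ES cells (adjusted p = 1.86e-07) and at least 39.2-fold lower in Cdx2 and FGF cultures than in motor neuron cultures (adjusted p = 1.07e-06).

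REST is a repressor known to bind the RE1 element of many channel genes outside neurons. Rest read 11.94, 11.89 and 12.04 in Cdx2 and FGF cultures, 9.82, 10.16 and 10.28 in motor neuron cultures, with 14.36, 14.48 and 14.43 in ES cells. The 3 groups were separate. It was 20.2-fold lower in motor neuron cultures than in ES cells (difference -4.34, SE 0.12, adjusted p = 4.24e-09) and 3.66-fold higher in Cdx2 and FGF cultures than in motor neuron cultures (difference 1.87, SE 0.12, adjusted p = 4.57e-06). Of the 6 genes listed for the REST complex, motor neuron cultures had 2 higher and 1 lower than ES cells, and with Cdx2 and FGF 1 was higher and 0 lower. Binding was not measured on these arrays.

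The promoters of channel genes that moved together were compared by their CG dinucleotides, whose clusters mark CpG islands. The table covered 250 bases before to 50 after each RefSeq start on GRCm38.p6 and matched 91 of the 119 channel genes and 21 of the 27 tested. The 4 stretches below are the 250 bases before the start, 5′ to 3′ on the gene's strand, with CG in capitals. They show Cacna1b and Kcnd3, over 4 in motor neuron cultures alone, and Scn1a and Kcnn4, over 4 in ES cells alone. They lie at chr2:24763153-24763402 (minus strand), chr3:105451640-105451889 (plus strand), chr2:66440838-66441087 (minus strand) and chr7:24370013-24370262 (plus strand), in the order listed, and hold 29, 18, 4 and 6 CG.
Cacna1b: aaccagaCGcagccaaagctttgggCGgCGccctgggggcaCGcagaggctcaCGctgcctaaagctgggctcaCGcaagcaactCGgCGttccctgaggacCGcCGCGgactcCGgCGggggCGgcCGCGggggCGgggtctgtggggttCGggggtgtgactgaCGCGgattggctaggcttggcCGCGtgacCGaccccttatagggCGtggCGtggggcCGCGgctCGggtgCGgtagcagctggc
Kcnd3: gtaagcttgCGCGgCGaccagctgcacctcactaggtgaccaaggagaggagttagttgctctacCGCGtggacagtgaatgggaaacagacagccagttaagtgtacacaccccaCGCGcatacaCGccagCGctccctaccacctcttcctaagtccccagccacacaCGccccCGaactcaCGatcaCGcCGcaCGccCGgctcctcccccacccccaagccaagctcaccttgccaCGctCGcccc
Scn1a: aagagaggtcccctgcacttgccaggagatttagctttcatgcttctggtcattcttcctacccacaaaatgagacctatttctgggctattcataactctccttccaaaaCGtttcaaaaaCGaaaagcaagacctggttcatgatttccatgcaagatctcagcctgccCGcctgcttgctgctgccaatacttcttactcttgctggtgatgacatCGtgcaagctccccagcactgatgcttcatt
Kcnn4: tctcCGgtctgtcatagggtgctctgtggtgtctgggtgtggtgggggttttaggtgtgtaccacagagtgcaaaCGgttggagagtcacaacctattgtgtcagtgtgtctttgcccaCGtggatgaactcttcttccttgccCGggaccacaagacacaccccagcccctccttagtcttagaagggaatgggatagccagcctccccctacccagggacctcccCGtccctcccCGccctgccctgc

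Over the full 300 bases, the 11 starts of 9 genes higher in motor neuron cultures than in ES cells held a median of 19 CG (3 to 48). The 9 starts of 8 genes lower there held a median of 6 (2 to 26), and 7 starts of 4 tested genes called neither way held 18 (4 to 42). The median was 9 over all 126 channel starts and 7 over all 32851 starts of the table. The ranges overlapped, with 26 CG for Kcnk5 among the lower genes and 3 at 1 of the starts of Cacnb1 among the higher. These sets follow from the values above and were compared without a test. Of 3 motifs searched on both strands, the RE1 left part TTCAGCACC was in the window of 0 of the 91 channel genes and in 0.371% of all starts. The RE1 right part GGACAG was at 25.4% of channel starts and 22.2% of all starts, and the Cdx site TTTATG at 4 of 126 channel starts, 3.18%, against 11.9% of all starts, with Scn2b the 1 tested gene that held it. A match is a string of letters in this window and not a site, and no match says nothing of more distant elements.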

How the data were processed

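Per the labels' protocols, amplification and labelling used a NuGEN Ovation kit. Per the submitters' processing notes, GCRMA and limma were used, with no version given. The deposited values are log2 levels per probe set, made by the authors; this scale was inferred from the values, which run from 2.17 to 16.1. They were not normalized again. Genes were those with a single symbol in the platform annotation, each by its probe set of highest mean over the arrays, and all 119 channel symbols were found by Entrez identifier in the GRCm38.p6 gene table. A mean per group was fitted over the 9 arrays in R 4.3.3 with limma 3.58.1 (lmFit, contrasts, trended eBayes), with 6 residual degrees of freedom and Benjamini-Hochberg adjustment over 10912 genes. The fit was tested on simulated data. The number of arrays limits the precision. No batch is given in the labels. Members, families, partner lists and marker lists were chosen with earlier results of these data known. Named were all 27 tested members, untested members over 4 on any array in part, and list genes. Alternatives were other normalizations, filters, probe set rules, variance priors, array weights, the replicate number as a block, and each array left out. Array controls were compared by exact two-sided permutation tests, which with 3 against 3 arrays cannot go below p = 0.1. Same-numbered arrays did not deviate together (correlations of deviations from -0.03 to 0.08), so replicate numbers were not used as pairs. Proteins were not used here.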

Additional observations from a re-analysis of the deposited data

How the results depend on the processing

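The counts of channel genes called higher or lower and the median differences were recomputed under 22 alternatives, as were the single-gene differences, of which 96.9% of 1716 kept their call status, 44 lost the call and 10 gained it. No called difference changed sign, while 16 differences with no call did (size up to 0.47). In motor neuron cultures against ES cells, the median was 0.94 after another quantile normalization, 3.84 with a filter at 6, 2.68 with probe sets averaged per gene and 2.29 with each probe set by itself; genes called lower were 5 with a filter at 6 and 4 with the mean of probe sets, and 21 probe sets were higher by themselves. In Cdx2 and FGF cultures against motor neuron cultures, the median was -0.69 after quantile normalization, 0 with no filter, -1.28 with a filter at 6, -0.058 with values under 4 raised to 4, -1.14 with the mean of probe sets and -1.36 with each probe set by itself; 1 gene was higher with the mean of probe sets, and 21 probe sets were lower by themselves. In Cdx2 and FGF cultures against ES cells, genes called lower were 6 with a filter at 6 and 6 with the mean of probe sets, and the median was -0.49 without x_at and s_at probe sets. The filter at 6 and the mean of probe sets tested 17 genes; the cause of the other shifts was not tested.

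With each array left out in turn, genes called higher were 12 to 12 in motor neuron cultures against ES cells, 2 to 4 in Cdx2 and FGF cultures against motor neuron cultures and 8 to 9 in Cdx2 and FGF cultures against ES cells. Genes called lower were 9 to 11, 9 to 12 and 11 to 12, with 9 in the second comparison without motor neuron replicate 1. Medians ran from 0.08 to 0.60, from -0.49 to -0.20 and from -0.64 to -0.070, the lowest of the last without ES replicate 3. With the replicate number as a block, 12 genes were higher and 11 lower in the first comparison, where Kcnip2 was added (adjusted p = 0.0391), and 3 higher and 12 lower in the second; the block changed no other call. Low signal limits most members: 10 of the 12 genes higher in motor neuron cultures than in ES cells had all 3 ES arrays under 4.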
